A study of Homo sapiens with 6 samples.

Results

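N-acetylglucosaminyltransferases (GlcNAc-transferases) of the MGAT family decide how many antennae an N-glycan carries. The 7 members described here are MGAT1, MGAT2, MGAT3, MGAT4A, MGAT4B, MGAT5 and MGAT5B. They were found by matching the RefSeq accession in each probe set identifier, without its version, to a gene symbol. Each member had a single probe set, which gave 7 of the 1259 probe sets and 7 of the 927 named genes on the array. The 3 arrays of RKO C2, a clonal population of the human colon carcinoma cell line RKO, were compared with the 3 arrays of RKO C2 F3. F3 was obtained from C2 by flow sorting for a low amount of the urokinase receptor u-PAR, and the labels give no further treatment or genetic change for either population. The series asked which glycosylation enzyme is deficient where u-PAR, an N-glycosylated protein, matures incompletely. F3 thus descends from the C2 clone, and it is called clonal in its sample labels but only a population in the design text. Same-numbered C2 and F3 arrays share a suffix in their titles whose meaning is not given. The labels do not tell whether the replicates were grown as separate cultures, so the p-values cover the spread between these replicates, which could be purely technical.

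All of these enzymes sit in the Golgi apparatus and take GlcNAc from the donor UDP-GlcNAc. MGAT1 places the first antenna on a trimmed oligomannose glycan, and without it no hybrid or complex N-glycan can form. After further mannose trimming MGAT2 starts the antenna on the other mannose arm, MGAT4A and MGAT4B add a branch to the arm that MGAT1 began, and MGAT5 adds one to the arm that MGAT2 began. MGAT3 instead places a bisecting GlcNAc in the core, which hinders later branching. MGAT5B is a relative of MGAT5 that is best known from brain, where it branches O-mannose glycans.

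The deposited values are log2 expression, so that a difference of 1 is a doubling of the signal. No difference between F3 and C2 was called for any of the 7 members. In limma, a linear model with stabilised variances, 0 of 7 had an adjusted p under 0.05, and 0 of 7 had an unadjusted p under 0.05. Over the whole array the same fit called 0.0794% of probe sets at the adjusted and 5.4% at the unadjusted threshold. The 4 members MGAT1, MGAT2, MGAT3 and MGAT4A had a negative and MGAT4B, MGAT5 and MGAT5B a positive change. The median change was -0.0044 over the members and -0.0064 over all probe sets, and the median absolute change was 0.065 and 0.047. When the fit was blocked on the replicate number, the counts were again 0 of 7 and 0 of 7, where 0.159% and 8.02% of all probe sets passed. The C2 and F3 arrays overlapped for each of the 7. Over the whole array 10.3% of probe sets had no overlap, a share at which 0 of 7 is not unusual. The outermost bounds of the 95% intervals were -0.37, for MGAT4A, and 0.31, for MGAT5B. A drop of more than 22.5% or a rise of more than 23.5% in the array signal lay outside the interval of each member. The interval covers the spread between arrays only. In a bulk sample, fewer cells that express a gene and less RNA per cell cannot be told apart.

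**Figure D1:**
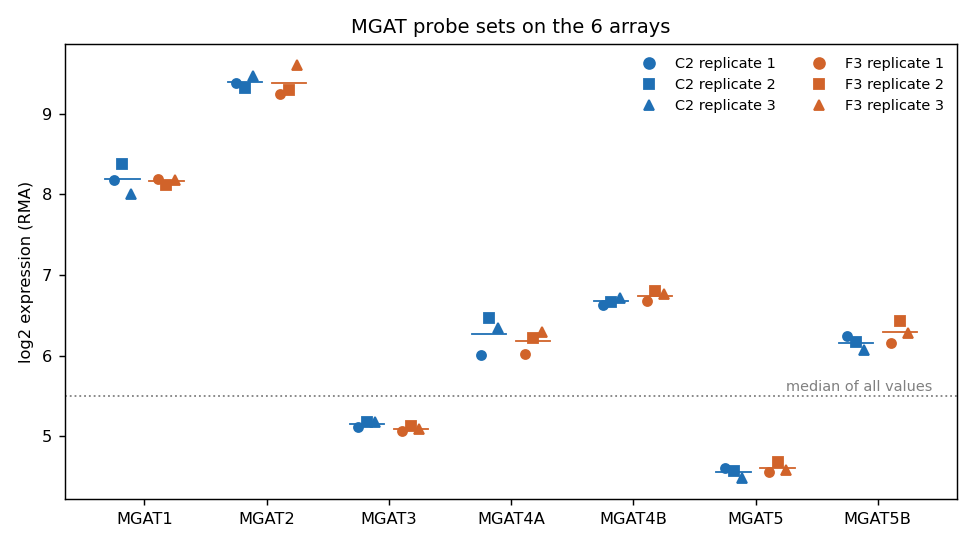
Log2 expression (vertical axis, RMA values) of the 7 MGAT probe sets on 3 C2 arrays (blue) and 3 F3 arrays (orange). Symbols mark the replicate number, short lines the population means and the dotted line the median of all values on the array. The 6-array means run from 4.58 for MGAT5 to 9.39 for MGAT2, MGAT4A and MGAT5B coincide near 6.22, and the C2 and F3 points overlap within each gene.

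The signals of the members differed widely, but probe sets bind their targets with different strength. Their order is therefore one of array signal and need not be one of transcript number. MGAT2 had the brightest probe set with a mean over the 6 arrays of 9.39, and MGAT1 followed at 8.18. These are the members needed for any complex-type glycan, and 85.9% and 78.1% of all probe sets were dimmer. Such shares refer to the 1259 probe sets of this array and not to all human genes. Of these probe sets, 534 had a mean log2 under 5. MGAT4B (6.71), MGAT4A and MGAT5B (both 6.22) formed a middle group, between 59.8% and 65.0% of the array. MGAT3 at 5.12 and MGAT5 at 4.58 were below the array-wide median of 5.50. Neighbours in this order kept their places on 6 of 6 arrays, except for MGAT4A and MGAT5B. Their means differed by 0.00035, MGAT4A was above MGAT5B on 3 of 6 arrays, and the difference ran from -0.23 to 0.29, so no order can be given for this pair. The closest neighbours that did keep their order were MGAT4B and MGAT4A, 0.21 to 0.65 apart, and MGAT3 and MGAT5, 0.45 to 0.70 apart.

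No detection call came with the values, so marker genes that a colon line should lack serve as a guide to what a low signal looks like. The 11 measured leukocyte markers had mean log2 levels from 2.49 to 4.83. The 7 fibroblast and endothelial markers ran from 2.30 to 5.04. MGAT5 lay inside both ranges, and MGAT3 lay 0.08 above the upper one. Whether these probe sets measured their transcript above background could not be determined from the signal. The other 5 members lay above both ranges. The 7 neuronal and glial markers, however, ran from 3.61 to 8.52, with BCAN at the top, and only MGAT2 lay above that range. Among the 6 measured colon epithelial markers of 16 listed, MUC1 was the brightest at 7.11, and MUC2, LGALS4, MUC13, B3GALT5 and B4GALNT2 lay between 4.02 and 5.13. These 5 were thus near the level of the leukocyte and stromal markers in this line. Of the 31 measured markers of all 4 lists, 0 passed the adjusted threshold in limma. An unadjusted p under 0.05 was found for 6, or 19.4%, beside 5.4% of all probe sets, and 6 had no overlap of the arrays (19.4% beside 10.3%). Of the 6 with the low p, 4 were leukocyte markers (CD72, KLRC3 and SIGLEC5 with a positive and KLRC1 with a negative change). The others were ICAM2 at -0.20 and BCAN at -0.30. KLRC3 had 4 probe sets and BCAN 2, and only the brightest of each is given here.

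MGAT1, which commits a glycan to the hybrid or complex type, read 8.18, 8.37 and 8.01 on C2 replicates 1, 2 and 3 and 8.19, 8.12 and 8.18 on the F3 replicates. The C2 arrays enclosed all F3 arrays, with C2 replicate 2 the highest and C2 replicate 3 the lowest of the 6. Its mean was 8.19 ± 0.18 (SD, n = 3) in C2 and 8.17 ± 0.04 (SD, n = 3) in F3. The log2 change was -0.020 (SE 0.089, 95% interval -0.22 to 0.18). The spread of MGAT1 was thus carried by the C2 arrays. Without C2 replicate 2 the change was 0.074, and without C2 replicate 3 it was -0.11.

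MGAT2, which turns a hybrid into a complex glycan, read 9.38, 9.32 and 9.47 in C2 and 9.25, 9.30 and 9.61 in F3. Here F3 enclosed C2, with F3 replicate 3 the highest and F3 replicate 1 the lowest. The means were 9.39 ± 0.07 and 9.39 ± 0.20 (SD, n = 3 each), and the log2 change was -0.0044 (SE 0.096, 95% interval -0.22 to 0.22). Without F3 replicate 3 it was -0.12, and without F3 replicate 1 it was 0.065. The 2 enzymes that every complex glycan needs therefore had changes near 0, with signs that depended on a single array.

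MGAT3, the bisecting enzyme, read 5.11, 5.18 and 5.18 in C2 and 5.07, 5.12 and 5.09 in F3. All F3 values but one lay under the whole C2 range, and F3 replicate 2 lay just above C2 replicate 1. It was the steadiest member in array signal, with an SD pooled over the populations of 0.034 that was larger than that of only 7.23% of probe sets. The signal of MGAT3 was near those of markers of other tissues, so this SD need not be that of its transcript. Its log2 change was -0.065 (SE 0.051, 95% interval -0.18 to 0.05, limma unadjusted p = 0.23, adjusted p = 0.97). The same-numbered arrays differed by -0.047, -0.057 and -0.091. The MGAT3 difference was thus small and of one sign in all 3 pairs.

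MGAT4A and MGAT4B catalyse the same reaction from different genes. MGAT4A read 6.01, 6.46 and 6.35 in C2 and 6.02, 6.22 and 6.29 in F3. Replicate 1 was the lowest array in both populations. Its log2 change was -0.095 (SE 0.12, 95% interval -0.37 to 0.18), the widest interval of the family. Its pooled SD of 0.19 exceeded that of 96.3% of probe sets. Blocking on the replicate number gave an SE of 0.064 and an interval of -0.25 to 0.06, again without a call (limma unadjusted p = 0.18, adjusted p = 0.76). Without C2 replicate 1 the change was -0.23, with an unadjusted p of 0.035 and an adjusted p of 0.83 in limma, without C2 replicate 2 it was -0.00051 and without F3 replicate 1 it was -0.018. The size of its change thus rested on single arrays.

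MGAT4B read 6.63, 6.67 and 6.72 in C2 and 6.68, 6.80 and 6.76 in F3. F3 replicates 2 and 3 lay above all C2 arrays, and F3 replicate 1 lay among them. The log2 change was 0.072 (SE 0.056, 95% interval -0.06 to 0.20, limma unadjusted p = 0.23, adjusted p = 0.97), and the pairs differed by 0.050, 0.12 and 0.042. MGAT3 and MGAT4B were the 2 of 7 members with the same sign in all 3 pairs. Among all probe sets this held for 29.9%, so that this share of the members is near the background.

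MGAT5 makes the branch that is preferred for poly-N-acetyllactosamine chains and for galectin binding. It read 4.61, 4.57 and 4.48 in C2 and 4.55, 4.67 and 4.58 in F3. F3 replicate 2 was above all C2 arrays and the other F3 arrays lay inside the C2 range. The log2 change was 0.050 (SE 0.060, 95% interval -0.09 to 0.19). Leaving out 1 array in turn moved it between 0.012, without C2 replicate 3, and 0.079, without C2 replicate 1.

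MGAT5B read 6.24, 6.17 and 6.07 in C2 and 6.15, 6.42 and 6.28 in F3. F3 replicates 2 and 3 were the highest 2 arrays, and F3 replicate 1 lay inside the C2 range. Its log2 change of 0.12 (SE 0.079, 95% interval -0.06 to 0.31) was the largest of the family and exceeded the absolute change of 88.0% of probe sets. It had the smallest p of the members (limma unadjusted p = 0.15, adjusted p = 0.97). Number 1 ran against the others, with paired differences of -0.084, 0.25 and 0.21. The change was 0.057 without F3 replicate 2 and 0.19 without F3 replicate 1. In the latter case the limma unadjusted p was 0.037 and the adjusted p was 0.89.

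**Figure D2:**
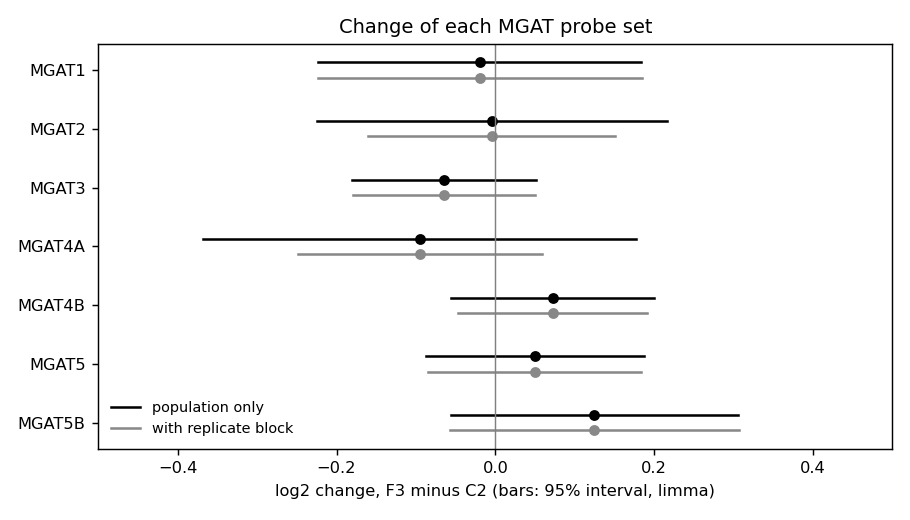
Log2 change, F3 minus C2 (horizontal axis), of each MGAT probe set with its 95% interval from limma. Black marks the fit with population only and grey the fit with the replicate number as a block. Every interval includes 0, and that of MGAT4A narrows from -0.37 to 0.18 without the block to -0.25 to 0.06 with it.

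The balance between 2 enzymes was read as the difference of their log2 values on the same array, which cancels any shift shared by both. For 5 chosen pairs, F3 was compared with C2 by a two-sided exact permutation test over the 20 splits of 3 against 3 arrays. Its smallest possible p is 0.1, so none of the 5 could pass 0.05.

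For the bisecting enzyme against the branching enzyme, MGAT3 minus MGAT4B, the differences were -1.51, -1.49 and -1.54 in C2 and -1.61, -1.67 and -1.67 in F3. All 3 F3 arrays lay below all 3 C2 arrays. The mean went from -1.51 ± 0.02 to -1.65 ± 0.04 (SD, n = 3 each), a change of -0.14, with an exact permutation p of 0.1 and of 0.38 when adjusted over the 5 pairs. Flipping the signs of the 3 paired differences (-0.097, -0.18 and -0.13) gave an exact p of 0.25, the smallest that 3 pairs allow. Dropping any 1 of the arrays gave -0.16 to -0.13. This was the only one of the 21 possible pairs of members without overlap, and over all pairs of probe sets on the array 10.5% had none. The share of 1 in 21 is thus not above that of the array. With the interval unadjusted and the tests chosen with earlier results known, the separation is not read as a shift in balance. A ratio would also not show which of the genes differed, and the signal of MGAT3 was near those of markers of other tissues.

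Within isoenzymes, MGAT4A minus MGAT4B was -0.62, -0.21 and -0.37 in C2 and -0.65, -0.58 and -0.47 in F3. The populations overlapped, and the mean change was -0.17 (exact permutation p = 0.3, 0.38 adjusted over the 5 pairs). MGAT5 minus MGAT5B was -1.63, -1.61 and -1.60 in C2 and -1.60, -1.75 and -1.71 in F3. The change of -0.075 had an exact permutation p of 0.3. C2 arrays agreed on this ratio with an SD of 0.015, and F3 arrays with one of 0.078. MGAT3 minus MGAT5, bisection against the MGAT5 branch, had a mean of 0.60 ± 0.10 in C2 and 0.49 ± 0.04 in F3 (SD, n = 3 each; exact permutation p = 0.3). MGAT1 minus MGAT2, the consecutive steps, had a mean of -1.20 ± 0.26 in C2 and -1.22 ± 0.19 in F3 (SD, n = 3 each; exact permutation p = 1). The spread of this last ratio within a population was the widest of the 5.

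**Figure D3:**
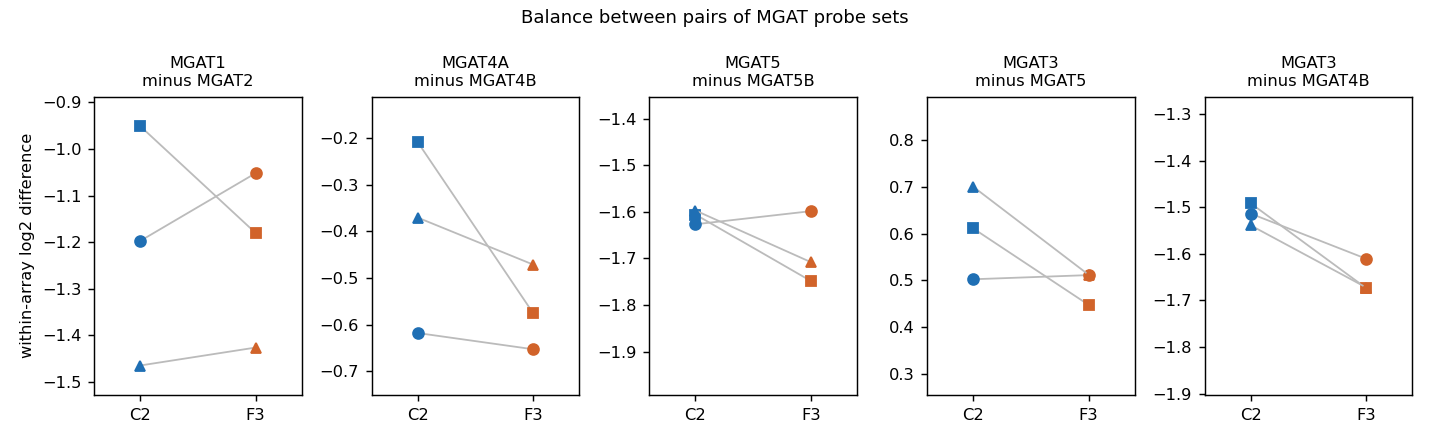
Within-array log2 difference of 5 pairs of MGAT probe sets (vertical axis, the same span in each panel) in C2 and F3. Lines join arrays of the same replicate number. The populations separate for MGAT3 minus MGAT4B alone, with C2 between -1.54 and -1.49 and F3 between -1.67 and -1.61.

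The members did not vary as one group over the 6 arrays. Of the 21 pairs, 12 had a positive and 9 a negative Pearson r, with a median of 0.044, against 0.020 over all pairs of probe sets. MGAT5 and MGAT5B had the highest value, with r = 0.93 (exact permutation p = 0.017, 0.35 adjusted over 21 pairs) and Spearman's rho = 0.94 (exact permutation p = 0.017, 0.35 adjusted). An r above that was found for 0.562% of all pairs of probe sets. Without F3 replicate 2 and C2 replicate 3, the arrays farthest from the median of MGAT5, r over the other 4 arrays was 0.56, with the range of MGAT5 narrowed by that choice. After removal of the population means r was 0.93. MGAT3 and MGAT4A came next with r = 0.75, rho = 0.71 and exact permutation p-values of 0.081 and 0.14 (0.85 and 1 adjusted), and without C2 replicates 2 and 3 r was 0.20. MGAT4A and MGAT4B, the isoenzyme pair, had r = 0.34. Arrays of the same number correlated after removal of the population means, most clearly for number 1. The 6 points of each correlation can therefore not be taken as independent.

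**Figure D4:**
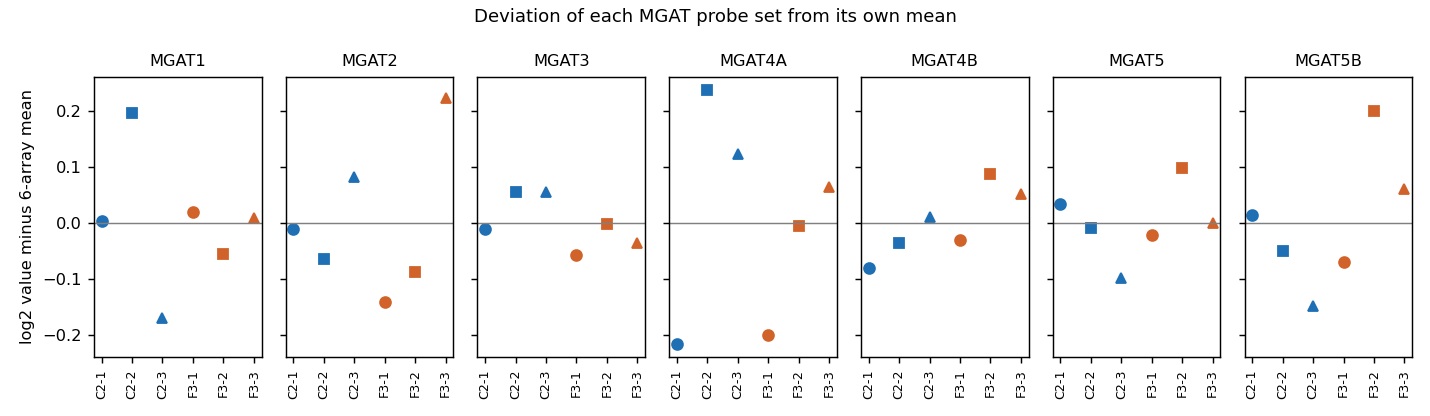
Log2 value of each MGAT probe set minus its own mean over the 6 arrays (vertical axis), by array (horizontal axis; C2 blue, F3 orange). MGAT5 and MGAT5B order the arrays much alike, while replicate 1 of both populations is low for MGAT4A, at 6.01 and 6.02.

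For each member the named gene with the most similar profile over the 6 arrays was found by Pearson's r. The search covered the named probe sets outside the members. For comparison, the best partner of every probe set was sought among all 1259, with unnamed ones and further probe sets of the same gene included. In this wider search the best partner of a typical probe set had r = 0.976. MGAT4A and COG6, which encodes a subunit of a Golgi tethering complex, had r = 0.998, and only 0.318% of probe sets had a partner with a higher r. The pooled SD of MGAT4A exceeded that of 96.3% of probe sets, and this share was not taken among probe sets of like spread. Whether the spread between arrays accounts for the high r was not tested. COG6 had a log2 change of -0.032 (limma adjusted p = 0.998). For MGAT2 the partner was TNPO1 (r = 0.983), for MGAT4B it was BMP4 (0.981) and for MGAT1 it was SLC35A4 (0.974). MGAT3 was closest to DDOST (0.969), MGAT5 to AMHR2 (0.969) and MGAT5B to IQSEC3 (0.958). The likeness of these last 6 was not unusual beside the wider search, in which between 33.0% and 82.4% of probe sets had a better partner.

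Genes of the steps around the MGAT enzymes were followed in 5 lists with measured members. Of their 44 measured genes, 0 rose and 0 fell at a limma adjusted p under 0.05, and 4, or 9.09%, had an unadjusted p under 0.05, beside 5.4% of all probe sets. These were UAP1 and B3GNT8 with a positive and SLC35B4 and LGALS3 with a negative change. With the replicate block the count was again 4, beside 8.02% of all probe sets, with ST6GAL1 in place of B3GNT8. The arrays did not overlap for 5 of the 44, or 11.4%, beside 10.3% of all probe sets. Of the further MGAT4 relatives MGAT4C and MGAT4D, 0 were matched to a probe set.

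All 6 mannosidases that trim the glycan before MGAT1 or between MGAT1 and MGAT2 were measured. Their changes ran from -0.17 to 0.0095 with a median of -0.012, and 0 of 6 passed. MAN2A2, one of the enzymes that open the second arm for MGAT2, had the smallest p, at -0.17 (SE 0.08, adjusted p of 0.97 in limma). Its pairs differed by -0.12 for number 1 and -0.38 for number 2, and number 3 read 5.83 in both populations. MAN1A2 was at -0.056 and MAN1A1 at -0.018.

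Of 12 genes for the donor sugar, 9 were measured, 7 of them with a negative change, and 0 passed (median -0.045). SLC35B4, a transporter of UDP-GlcNAc and UDP-xylose, went from 7.15 ± 0.10 to 6.93 ± 0.02 (SD, n = 3 each) without overlap of the arrays. Its log2 change of -0.23 had a limma unadjusted p of 0.0062 and an adjusted p of 0.73. UAP1, which makes UDP-GlcNAc in the last step of the hexosamine pathway, had a change of 0.17 (limma unadjusted p = 0.046, adjusted p = 0.90). SLC35A3, the Golgi UDP-GlcNAc transporter, was at -0.096 (SE 0.08). The genes that make the donor and those that carry it were thus not called in either direction.

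Antennae are elongated by galactosyl- and N-acetyllactosamine-forming enzymes. The list of 14 genes also held a sugar nucleotide transporter and enzymes that add N-acetylgalactosamine. All 14 were measured, with a median of -0.0086 and 0 past the threshold. B3GNT8, which extends lactosamine chains on multi-branched N-glycans, had the smallest p, at 0.12 (SE 0.05, limma unadjusted p = 0.046, adjusted p = 0.90; 0.057 and 0.66 with the replicate block). B4GALT3 was at -0.078 and B4GALT1 at -0.069. Among the 10 genes of capping and core fucose, with a median of -0.043, 0 passed. ST6GAL1, which caps antennae with sialic acid, was at -0.22 (SE 0.12, limma unadjusted p = 0.10, adjusted p = 0.97; 0.0092 and 0.47 with the replicate block), FUT4 at -0.080 and FUT8, the core fucosyltransferase, at -0.068.

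Galectins are lectins that bind the lactosamine of branched glycans. The list of 5 measured genes also held LGALS3BP, which encodes a glycoprotein bound by galectins. Of the 5, 0 passed, and the median of -0.0054 was the change of LGALS3BP itself. LGALS3, encoding galectin-3, had a mean of 7.95 ± 0.08 in C2 and 7.55 ± 0.06 in F3 (SD, n = 3 each). Its change was -0.40 (SE 0.06), with a limma adjusted p of 0.095, or 0.066 with the replicate block. That is outside the interval of every MGAT member, although no test set it against them. LGALS9 was at 0.082 and LGALS8 at 0.029.

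**Figure D5:**
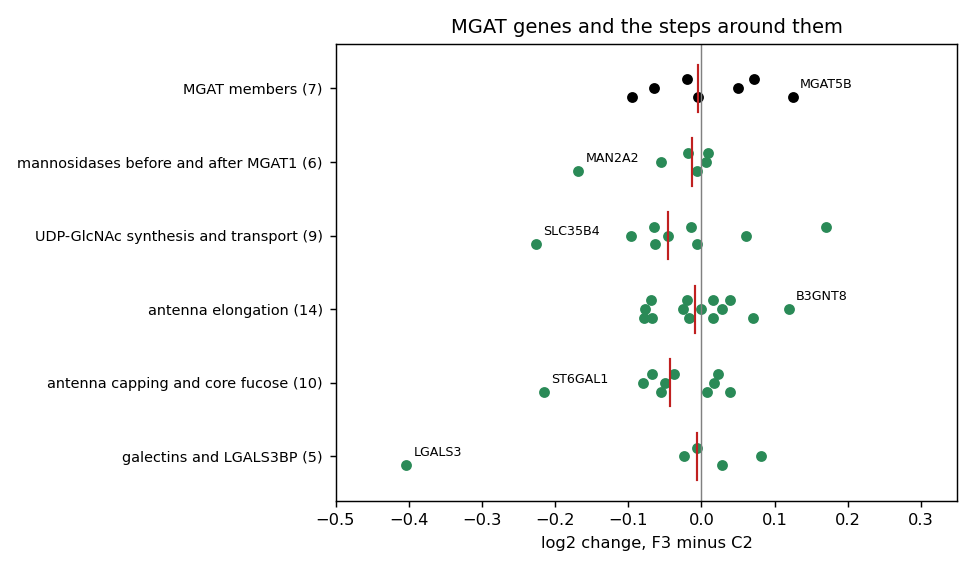
Log2 change, F3 minus C2 (horizontal axis), of the 7 MGAT genes (black) and of 44 genes of the steps around them (green; galectins together with LGALS3BP), 1 point per gene, with the number of genes in parentheses. Red bars are medians and the labelled gene has the largest absolute change of its row. The MGAT points lie between -0.095 and 0.12, and LGALS3 at -0.40 is the farthest point from 0.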

How the data were processed

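Biotin cRNA was made from total RNA with the Affymetrix procedure, per the labels' protocols. The authors deposited log2 values, 1 per probe set and array. The method was RMA, per the submitters' processing notes, with the version, probe definitions and genome build not given in the sources used here. This step equalises the arrays' distributions and tends to understate changes of weakly hybridising probe sets. Values ran from 2.08 to 14.1, array medians from 5.48 to 5.51, and any pair of arrays correlated with r from 0.9981 to 0.9992; the number of arrays limits the precision. RefSeq accessions, matched to the RefSeq gene table of GRCh38, named 1043 of 1259 probe sets.

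All probe sets were fitted in limma 3.58.1 (R 4.3.3; lmFit and eBayes, two-sided, population only), with Benjamini-Hochberg adjustment over the 1259 probe sets and a threshold of 0.05. Every single-gene p is from that fit unless stated. The limma fit was tested on 20 simulated data sets with independent noise between arrays. That test did not cover the likeness of same-numbered arrays, the permutation tests or the correlations. A listed gene with more than 1 probe set was represented by its brightest. The members, the lists and the tests were chosen with earlier results of these data known. Genes were named by a rule: all members, up to 3 genes of smallest p in each list, and the most similar named gene of each member. The rule does not cover markers: all measured colon markers were named, and markers of other cell types were named after their values were seen.

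After subtraction of the population means, same-numbered arrays correlated with r = 0.52, 0.18 and 0.26 for numbers 1, 2 and 3. Arrays of different number had r from -0.38 to 0.15. The 0.15, of C2 replicate 2 with F3 replicate 3, is close to the 0.18 of number 2. The values thus hardly set number 2 apart from number 3. The numbers, which come from the labels together with a shared title suffix, were still taken to pair the arrays. The alternatives were leaving out each array, a replicate block, array weights, centring on array medians, a further quantile normalization, a mean log2 minimum of 5, robust eBayes with an intensity trend, other thresholds and averaging each gene's probe sets. Probe and protein sequences were not used here.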

Additional observations from a re-analysis of the deposited data

How the results depend on the processing

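The number of MGAT probe sets past the threshold was 0 in all 14 alternatives, also at an adjusted p under 0.10, and with single arrays left out it ran from 0 to 0. The smallest limma adjusted p of a member over these alternatives was 0.73, with the replicate block. The block gave 0 calls among the members, 0 at an unadjusted p under 0.05 and 0 among the pathway genes, so it changed no call. The pathway count was 0 in all 9 of its alternatives. MGAT3, MGAT4A, MGAT4B, MGAT5 and MGAT5B kept their direction throughout; MGAT5 has no value under the filter, which removed the 534 probe sets with a mean log2 under 5. The direction turned for results close to 0, and the cause was not tested: MGAT2 was at 0.011 with median centring and 0.062 with quantile normalization, and MGAT1 at 0.012 with quantile normalization. With 1 array left out in turn, MGAT1 ran from -0.11 to 0.074 and MGAT2 from -0.12 to 0.065, and MGAT1 minus MGAT2 from -0.15 to 0.11. Without C2 replicate 2 the list medians were 0.029 for galectins with LGALS3BP, 0.010 for mannosidases, 0.017 for UDP-GlcNAc synthesis and transport and 0.017 for elongation, all of them positive, and -0.00035 for capping. Some list medians turned positive in other alternatives as well. Without F3 replicate 1, elongation was at 0.044 and galectins with LGALS3BP at 0.024. Without F3 replicate 3, mannosidases were at 0.017. Signals near those of markers of other tissues limit what can be read from MGAT5 and MGAT3.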
